A study of Homo sapiens with 6 samples.

Results

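The EGF family of growth factors and its receptors was examined in RNA-Seq of SW480 cells, a human colorectal cancer line, after knockdown of PCYT2. The 7 genes were EREG, AREG, TGFA and HBEGF, which encode ligands, and EGFR, ERBB2 and ERBB3, which encode receptors, out of 19437 genes in the deposited tables. They were chosen by name with the strong rise of EREG under one hairpin already seen, so that this rise is the reason for the choice and is described here without a test. Because the selection rests on the comparison of shPCYT2-1 with shNT, none of the 7 genes is tested in any comparison that holds shPCYT2-1. AREG, TGFA, HBEGF, EGFR, ERBB2 and ERBB3 are tested only between shPCYT2-2 and shNT, and both comparisons share the same shNT libraries.

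The experiment held 3 groups of 2 libraries each. shNT was the control hairpin, and shPCYT2-1 and shPCYT2-2 were separate hairpins against PCYT2, an enzyme of the pathway that makes the membrane lipid phosphatidylethanolamine. All 6 libraries came from the same cell line. In the study, hairpins in a lentiviral pLKO.1 vector were delivered by infection and infected cells were selected with puromycin, and the sources used here do not say whether the 2 libraries of a group came from separate infections or cultures, so that the spread between them may be technical. Levels are read as FPKM, fragments scaled to transcript length and library size. The headers and labels used here name no unit, and the values, which are not whole and sum to 396466.6 to 402611.9 per library, could also be TPM over part of the genes. Both units are per length, so that levels of different genes can be set side by side. The libraries listed 18806 to 19209 gene identifiers above 0, and the number of reads behind a value is unknown.

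The ligands are made as membrane proteins whose outer part is cut free by proteases of the ADAM family and then binds receptors on the same or a neighbouring cell. EREG and AREG bind EGFR (EREG also ERBB4), TGFA binds EGFR, and HBEGF binds EGFR and ERBB4. ERBB2 has no known soluble ligand and ERBB3 has little kinase activity, so both signal mainly as partners in receptor pairs. In the intestine this system feeds the RAS-ERK pathway and drives epithelial growth and repair, and EREG and AREG are well known in colorectal cancer as markers of tumors that lean on EGFR.

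EREG and AREG are neighbours on chromosome 4 (positions of all genes from GENCODE 29, GRCh38), EREG at chr4:74365143-74388751 and AREG at chr4:74445134-74455009, both on the plus strand, with starts 80 kb apart. Their upstream windows are shown because these genes lie side by side and are the most abundant ligand and the ligand that set the choice of genes. Each line gives the 250 bases that end at the RefSeq start (GRCh38.p14, plus strand), chr4:74364895-74365144 for EREG and chr4:74444886-74445135 for AREG, 5′ to 3′, with matches to the motifs searched in capitals.
EREG: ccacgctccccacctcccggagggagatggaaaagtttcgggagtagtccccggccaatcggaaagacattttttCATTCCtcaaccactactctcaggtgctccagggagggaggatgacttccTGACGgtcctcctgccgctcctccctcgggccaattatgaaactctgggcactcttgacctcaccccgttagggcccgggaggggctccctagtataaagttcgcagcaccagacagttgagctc
AREG: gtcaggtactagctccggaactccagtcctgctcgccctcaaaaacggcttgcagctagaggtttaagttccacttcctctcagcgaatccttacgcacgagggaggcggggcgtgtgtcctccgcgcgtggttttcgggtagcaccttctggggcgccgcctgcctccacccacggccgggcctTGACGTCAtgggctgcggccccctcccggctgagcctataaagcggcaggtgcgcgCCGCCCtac
The motifs searched on both strands were TGANTCA (AP-1), TGACGTCA (the cyclic AMP response element), its partial form TGACG, which overlaps the full element, GGAATG (the TEAD core) and GGGCGG (the GC box). The EREG window held CATTCC, the TEAD core read on the other strand, 175 to 170 bases before the start, and TGACG 125 to 121 bases before it. The AREG window held TGACGTCA 65 to 58 bases before the start and CCGCCC, a GC box, 9 to 4 bases before it. Of 35116 windows of this length, 11.9% held the TEAD core, 21.2% held TGACG, 1.65% held TGACGTCA, 42.6% held the GC box and 6.57% held TGANTCA. GC content was 58% for EREG and 65.2% for AREG. A match describes the letters and is not a measured binding site.

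PCYT2 itself (chr17:81900965-81911464) was lower with both hairpins. It stood at 11.6 and 13.8 FPKM in shNT, at 7.11 and 7.36 in shPCYT2-1 and at 6.71 and 6.18 in shPCYT2-2. All 4 knockdown libraries lay below both controls. The mean fell from 12.7 ± 1.51 FPKM (SD, n = 2) to 7.23 ± 0.171 and 6.44 ± 0.379, which is 0.57 times shNT with shPCYT2-1 (limma adjusted p = 0.00202) and 0.508 times with shPCYT2-2 (limma adjusted p = 0.00257). The hairpins did not differ beyond the threshold in PCYT2 level, with a log2 difference of -0.15 (SE 0.1, limma adjusted p = 0.31).

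The epithelial character of the cells was checked with marker genes. Of 10 markers of colorectal epithelium, 8 stood at 1 FPKM or more in every library, among them EPCAM, CDH1, CDX2 and VIL1. KRT8 was the most abundant at 2734.2 to 3860.7 FPKM. KRT20 and LGR5 stood below 1 FPKM in every library, and KRT20 was not listed in shNT replicate 2 or in either shPCYT2-2 library. The sum over the 10 markers was 8212.6 and 8771.2 FPKM in shNT and 8433.6 and 8526.7 in shPCYT2-1. It was lowest in shPCYT2-2, at 6260.2 and 6556.4 FPKM. The 8 fibroblast markers summed to 2.28 to 4.13 FPKM, led by COL1A1 in shNT and shPCYT2-2 and by LUM, at 2.17 and 2.24 FPKM, in shPCYT2-1, and COL3A1 was listed in no library. The 6 blood cell markers summed to 17.1 to 23.8 FPKM, nearly all of it CD68, with PTPRC listed in no library. The 4 endothelial markers summed to 0.513 to 0.769 FPKM, led by CDH5. Any part of these shifts in the values below was not tested.

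EREG (epiregulin, ENSG00000124882) set shPCYT2-1 apart from the other 4 libraries. Its level was 11.4 and 8.85 FPKM in shNT, 53.2 and 52.1 FPKM in shPCYT2-1, and 12.3 and 12.9 FPKM in shPCYT2-2. Both shPCYT2-1 libraries were far above every other library, and the shPCYT2-2 libraries lay just above both controls. The means were 10.1 ± 1.77, 52.7 ± 0.795 and 12.6 ± 0.42 FPKM (SD, n = 2 each), which is 5.21 times shNT with shPCYT2-1 and 1.25 times with shPCYT2-2. On the log2(FPKM + 1) scale the difference from shNT was 2.28 (SE 0.104) with shPCYT2-1 and 0.31 (SE 0.104) with shPCYT2-2, given as descriptions without a test. Among the 12755 genes tested, 4 had a larger positive difference with shPCYT2-1 than EREG and 1451 had a larger one with shPCYT2-2. The smaller of these differences hung on the controls, since it was 0.14 without shNT replicate 2 and 0.47 without shNT replicate 1. In bulk RNA a larger share of cells making EREG and more EREG RNA per cell cannot be told apart.

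**Figure D1:**
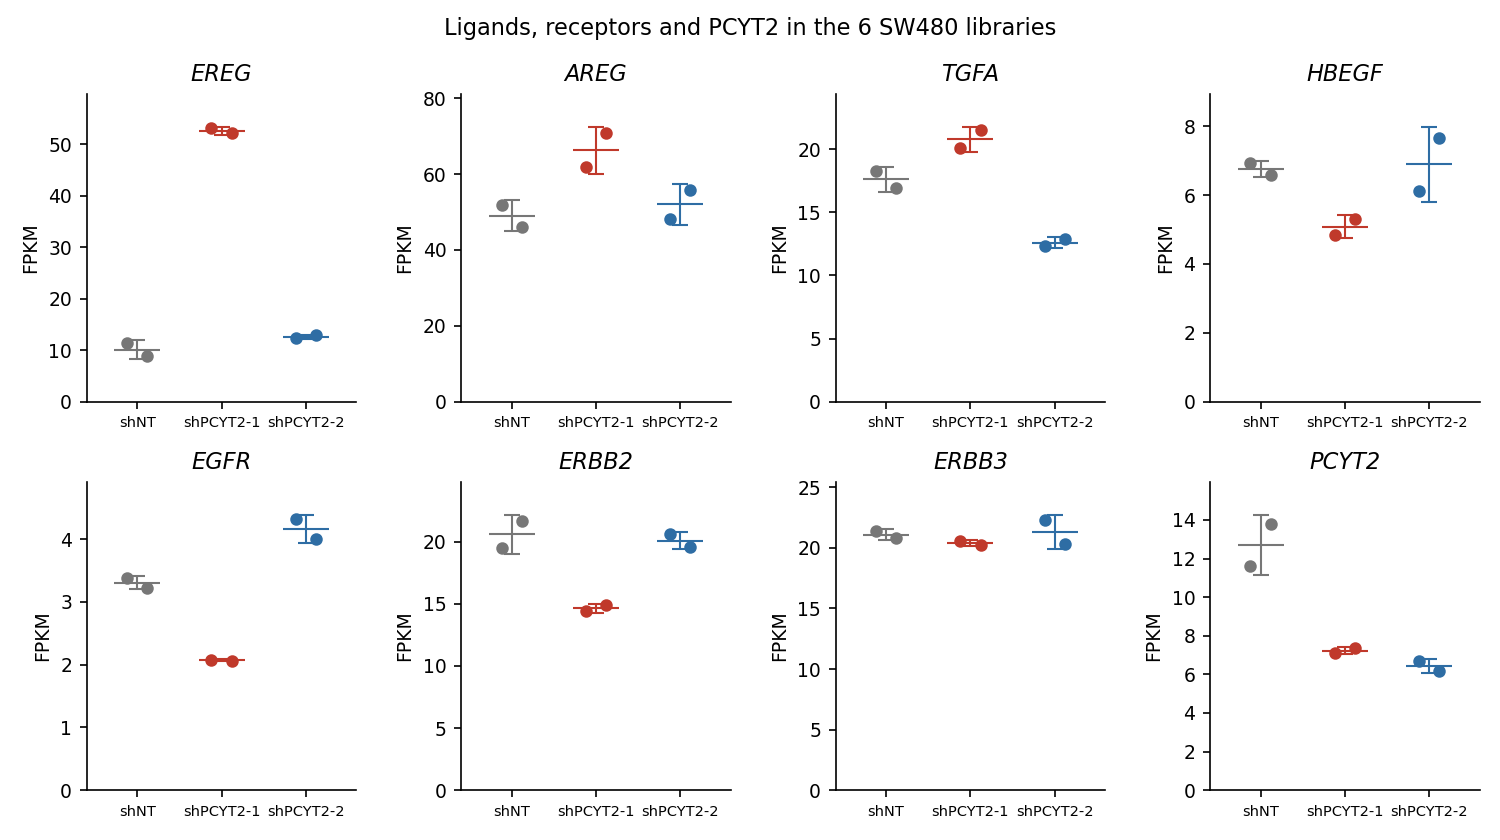
FPKM of the 4 ligands, the 3 receptors and PCYT2 (one panel each, linear axis from 0) in shNT, shPCYT2-1 and shPCYT2-2; points are libraries, the wide bar is the mean and the error bar the SD (n = 2). EREG stood at 53.2 and 52.1 FPKM in shPCYT2-1 and at no more than 12.9 in the other 4 libraries, while EGFR was lowest in shPCYT2-1 and highest in shPCYT2-2.

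AREG (amphiregulin, ENSG00000109321) was the most abundant of the 4 ligands in every library. It stood at 51.9 and 46.1 FPKM in shNT, 61.9 and 70.7 in shPCYT2-1, and 48.2 and 55.8 in shPCYT2-2. The shPCYT2-1 libraries lay above the rest, and the shPCYT2-2 libraries overlapped with shNT. The means of 49 ± 4.09, 66.3 ± 6.23 and 52 ± 5.42 FPKM put shPCYT2-1 at 1.35 times shNT, a log2 difference of 0.43 (SE 0.0964) given without a test. Between shPCYT2-2 and shNT the log2 difference was 0.084 (SE 0.0964, limma adjusted p = 0.59), which did not pass the threshold. It was -0.021 without shPCYT2-2 replicate 2 and 0.19 without replicate 1.

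TGFA (transforming growth factor alpha, ENSG00000163235, chr2:70447280-70554193, minus strand) went opposite ways with the hairpins. The libraries read 18.3 and 16.9 FPKM in shNT, 20.1 and 21.5 in shPCYT2-1, and 12.3 and 12.9 in shPCYT2-2. The 3 groups did not overlap, with shPCYT2-2 lowest and shPCYT2-1 highest. Between shPCYT2-2 and shNT TGFA fell from 17.6 ± 0.988 to 12.6 ± 0.437 FPKM, a ratio of 0.714 and a log2 difference of -0.45 (SE 0.0795, limma adjusted p = 0.0109). This was the only one of the 6 tested members past the threshold, 0 being higher and 1 lower, against a background of 7.71% of all tested genes called higher and 4.76% called lower in this comparison. The call was lost without shPCYT2-2 replicate 1 (limma adjusted p = 0.0901) and with no expression limit (limma adjusted p = 0.0585). With shPCYT2-1 the mean was 20.8 ± 0.963 FPKM, 1.18 times shNT, a description only.

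HBEGF (heparin-binding EGF-like growth factor, ENSG00000113070, chr5:140332843-140346631, minus strand) was the least abundant ligand in every library. It read 6.92 and 6.59 FPKM in shNT, 4.84 and 5.31 in shPCYT2-1, and 6.13 and 7.67 in shPCYT2-2. Only the shPCYT2-1 libraries stood apart, at 0.751 times shNT (means 5.07 ± 0.328 and 6.75 ± 0.233 FPKM). With shPCYT2-2 the log2 difference was 0.021 (SE 0.112, limma adjusted p = 0.925), and -0.025 under median-ratio scaling. Leaving out shPCYT2-2 replicate 2 gave -0.12 and leaving out replicate 1 gave 0.16.

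Together the 4 ligands summed to 88.5 and 78.5 FPKM in shNT, 140 and 150 in shPCYT2-1, and 78.9 and 89.4 in shPCYT2-2. EREG made up 12.8% and 11.3% of that sum in shNT, 38% and 34.8% in shPCYT2-1, and 15.6% and 14.5% in shPCYT2-2. AREG held the largest share throughout, from 44.2% to 62.5%, with its lowest shares in shPCYT2-1. The share of TGFA was 20.7% and 21.6% in shNT and 14.4% to 15.6% in the knockdown libraries. The similar TGFA shares in the knockdown libraries hid unlike levels, since the ligand sum was higher in shPCYT2-1 and TGFA itself lower in shPCYT2-2.

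EGFR (ENSG00000146648, chr7:55019021-55211628, plus strand) encodes the receptor that binds all 4 ligands, and it was the least abundant of the 7 genes. It read 3.38 and 3.23 FPKM in shNT, 2.08 and 2.06 in shPCYT2-1, and 4.32 and 4 in shPCYT2-2. The 3 groups did not overlap, and their order, shPCYT2-1 lowest and shPCYT2-2 highest, was the reverse of that of TGFA. Against shNT at 3.3 ± 0.106 FPKM, shPCYT2-1 stood at 0.628 times (2.07 ± 0.0149 FPKM) and shPCYT2-2 at 1.26 times (4.16 ± 0.222 FPKM). The test of shPCYT2-2 against shNT gave a log2 difference of 0.26 (SE 0.0982, limma adjusted p = 0.107) and did not pass. With shPCYT2-1 the log2 difference was -0.49 (SE 0.0982), without a test, and the pseudocount of 1 pulls it toward 0 at this low level, since it was -0.65 with a pseudocount of 0.1.

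ERBB2 (ENSG00000141736, chr17:39687914-39730426, plus strand), the receptor without a known soluble ligand, read 19.5 and 21.7 FPKM in shNT, 14.4 and 14.9 in shPCYT2-1, and 20.6 and 19.6 in shPCYT2-2. Only shPCYT2-1 stood apart, at 0.71 times shNT (14.6 ± 0.354 against 20.6 ± 1.54 FPKM, log2 difference -0.47, SE 0.0797, not tested). shPCYT2-2 (20.1 ± 0.691 FPKM) overlapped with shNT, with a log2 difference of -0.035 (SE 0.0797, limma adjusted p = 0.797). That difference was -0.11 without shNT replicate 1 and 0.037 without shNT replicate 2.

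ERBB3 (ENSG00000065361, chr12:56076799-56103505, plus strand), the partner with a weak kinase, varied least. It read 21.4 and 20.8 FPKM in shNT, 20.6 and 20.2 in shPCYT2-1, and 22.3 and 20.3 in shPCYT2-2. The shPCYT2-1 libraries lay below both controls by a small margin, at 0.968 times, and shPCYT2-2 overlapped with both other groups. The test of shPCYT2-2 against shNT gave a log2 difference of 0.0095 (SE 0.075, limma adjusted p = 0.949), -0.041 under median-ratio scaling, -0.055 without shPCYT2-2 replicate 1 and 0.074 without replicate 2. The 3 receptors summed to 44.3 and 45.8 FPKM in shNT, 37.1 and 37.2 in shPCYT2-1, and 47.2 and 43.9 in shPCYT2-2, and EGFR made up 7.05% to 7.62% of the sum in shNT, 5.55% and 5.61% in shPCYT2-1, and 9.12% and 9.15% in shPCYT2-2.

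Read over all 7 members, shPCYT2-1 had 3 genes above shNT (EREG, AREG and TGFA), 4 below (HBEGF, EGFR, ERBB2 and ERBB3) and 0 whose libraries overlapped, in a comparison where 69% of all tested genes did not overlap. Between shPCYT2-2 and shNT 2 members lay above (EREG and EGFR), 1 below (TGFA) and 4 overlapped, against 57.5% of all genes that did not overlap. Between shPCYT2-2 and shPCYT2-1 3 lay above (HBEGF, EGFR and ERBB2), 3 below (EREG, AREG and TGFA) and 1 overlapped (ERBB3), against 67.3%. The median log2 difference of the members was -0.045, 0.021 and 0.054 in these 3 comparisons, beside 0.067, 0.044 and -0.023 over all genes tested. With 2 libraries a group, groups that do not overlap are common, and nothing particular to the 7 genes is read from these counts. All 7 passed the expression limit, and by mean FPKM they ranged from the 29.7th percentile (EGFR) to the 91.2nd (AREG) of the tested genes.

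**Figure D2:**
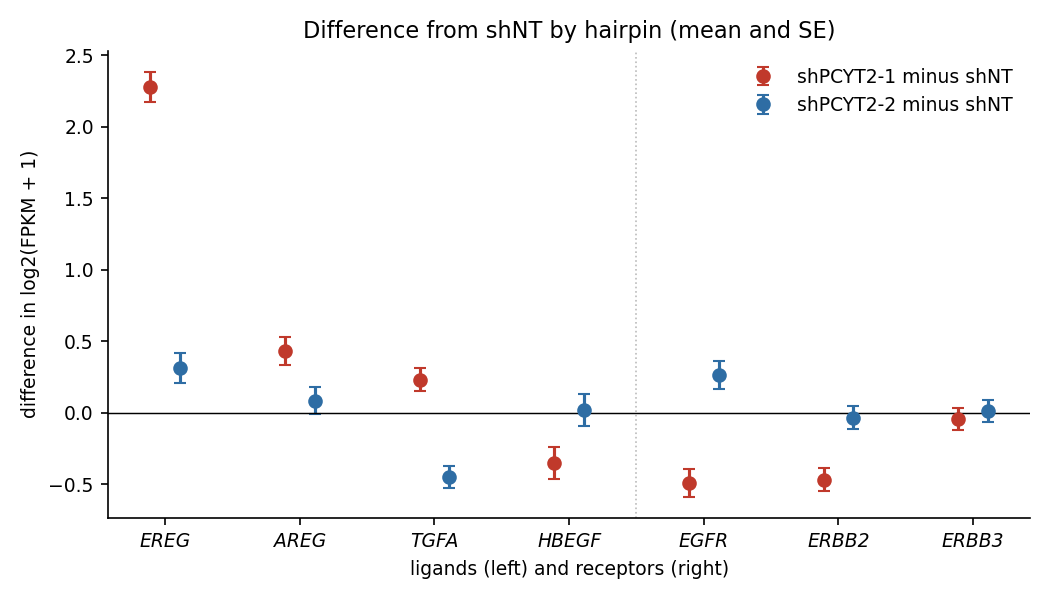
Difference from shNT in log2(FPKM + 1) for the 4 ligands (left) and the 3 receptors (right) with shPCYT2-1 and shPCYT2-2; points are fitted means and bars the SE of the limma fit over 6 libraries. EREG lay at 2.28 with shPCYT2-1 and 0.31 with shPCYT2-2, and TGFA and EGFR lay on opposite sides of 0 with the hairpins.

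The genes whose pattern over the 6 libraries was most like that of EREG were found by the root mean square distance between centred log2(FPKM + 1) values. The nearest was PLAU, the urokinase-type plasminogen activator, at a distance of 0.0706. PLAU read 1.86 and 1.58 FPKM in shNT, 12.2 and 10.9 in shPCYT2-1, and 2.33 and 2.36 in shPCYT2-2. It was followed by PRR20E at 0.158, SPRR2D, a cornified envelope precursor, at 0.25, SYP, the synaptic vesicle protein synaptophysin, at 0.297, and the hair keratin-associated KRTAP2-3 at 0.304. PRR20E has near-identical copies and stood at 0.118 FPKM in one shNT library and was not listed in the other, so that no fold is given for it. The shPCYT2-1 means of PLAU, SPRR2D, SYP and KRTAP2-3 were 4.21 to 6.83 times those of shNT. Because likeness to EREG over these same libraries chose the genes, a rise of this kind follows from the choice.

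The other genes of the family stood below 1 FPKM or were not listed. A gene that is not listed need not be silent, since 0 of 13 mitochondrial protein-coding genes were listed either. Of 8 (EGF, BTC, EPGN, NRG1, NRG2, NRG3, NRG4 and ERBB4), EGF and NRG3 were listed in no library, and EPGN, NRG1, NRG4 and ERBB4 were below the limit of a mean of 0.5 FPKM. BTC (betacellulin), a ligand of EGFR and ERBB4, read 0.56 and 0.743 FPKM in shNT, 0.749 and 0.81 in shPCYT2-1, and 0.396 and 0.378 in shPCYT2-2. NRG2 (neuregulin 2), a ligand of ERBB3 and ERBB4, read 0.579 and 0.582, 0.496 and 0.4, and 0.961 and 0.723 FPKM. Of these 2 tested genes 0 passed against shNT with either hairpin by limma. The limma adjusted p were 0.485 and 0.43 for shPCYT2-1 and 0.159 and 0.225 for shPCYT2-2, for BTC and NRG2. Between the hairpins BTC was lower in shPCYT2-2 (log2 difference -0.36, SE 0.11, limma adjusted p = 0.0392), a call lost when any one library of either hairpin was left out (limma adjusted p = 0.0872 to 0.169), while NRG2 had a log2 difference of 0.35 (limma adjusted p = 0.0508).

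Among 10 genes of ligand shedding, 8 were tested. With shPCYT2-1 ADAM17, ADAM9 and ADAM10 rose and ADAM8 fell, 3 higher and 1 lower, against 16.6% of all genes called higher and 10.1% called lower. ADAM17, the main protease that frees EREG, AREG, TGFA and HBEGF, read 11.7 and 11.5 FPKM in shNT, 17.7 and 18.2 in shPCYT2-1, and 10.9 and 11.1 in shPCYT2-2. Both shPCYT2-1 libraries were above all others (1.54 times shNT, log2 difference 0.58, SE 0.0751, limma adjusted p = 0.00158). Its log2 difference with shPCYT2-2 was -0.078 (limma adjusted p = 0.516), and the hairpins differed by -0.66 (limma adjusted p = 0.000526).

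ADAM9, another membrane protease, rose with both hairpins, from 2.47 ± 0.227 to 4.41 ± 0.502 FPKM (limma adjusted p = 0.00498) and 4.11 ± 0.327 FPKM (limma adjusted p = 0.0172), and was the only gene of the list called in shPCYT2-2 against shNT. That second call was lost without shNT replicate 2 or without shPCYT2-2 replicate 1, each of which left a log2 difference of 0.49. It was also lost with no expression limit (limma adjusted p = 0.0821). ADAM10, which cuts EGF and BTC, was 1.42 times shNT with shPCYT2-1 (limma adjusted p = 0.0266), and ADAM8 was 0.634 times (limma adjusted p = 0.0378). Both calls were lost with no expression limit (limma adjusted p = 0.0897 and 0.116). The ADAM10 call was lost without shNT replicate 2, shPCYT2-1 replicate 1 or shPCYT2-1 replicate 2 (limma adjusted p = 0.0645 to 0.147) and the ADAM8 call without any one of the 4 libraries compared (0.0579 to 0.222). Between the hairpins 2 genes were higher in shPCYT2-2 and 1 lower, against a background of 12.9% and 14.3% of all genes, ADAM8 by 0.72 (limma adjusted p = 0.00386), RHBDF1, an iRhom partner of ADAM17, by 0.54 (limma adjusted p = 0.0219) and ADAM17 as above. RHBDF1 lost its call without shPCYT2-1 replicate 1 (limma adjusted p = 0.158) or without shPCYT2-2 replicate 1 (0.0831) or replicate 2 (0.0991), and its difference dropped to 0.35 in the first of these cases and stood at 0.74 when shPCYT2-1 replicate 2 was left out. The list's median log2 difference was -0.0027, 0.053 and -0.06 in the 3 comparisons, in the order shPCYT2-1 against shNT, shPCYT2-2 against shNT and shPCYT2-2 against shPCYT2-1.

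Of 25 genes that couple the receptors to signaling or restrain them, 24 were tested, and 5 were higher and 2 lower in each of the 3 comparisons, with medians of 0.10, 0.18 and 0.094. The shares called higher and lower over all genes were 16.6% and 10.1% with shPCYT2-1, 7.71% and 4.76% with shPCYT2-2, and 12.9% and 14.3% between the hairpins. ERRFI1, which encodes an inhibitor that binds the EGFR kinase, fell with both hairpins. It read 12 and 10.4 FPKM in shNT, 6.06 and 6.45 in shPCYT2-1, and 6.16 and 6.69 in shPCYT2-2, with all 4 knockdown libraries below both controls (ratios 0.558 and 0.574, limma adjusted p = 0.00169 and 0.00515). The second of these was lost without shPCYT2-2 replicate 1 (limma adjusted p = 0.0583) and with no expression limit (0.052).

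With shPCYT2-1 the ubiquitin ligase gene CBLB, the phosphatase gene PTPN11 and the phospholipase gene PLCG1 rose to 1.64, 1.29 and 1.26 times shNT (limma adjusted p = 0.029, 0.0133 and 0.0108), and the ligase gene CBLC fell to 0.606 times (limma adjusted p = 0.0367). The size of the CBLC fall hung on the controls, since its log2 difference of -0.45 was -0.27 without shNT replicate 2 and -0.63 without shNT replicate 1. With shPCYT2-2 SOCS5, a suppressor of cytokine signaling, the ligase gene CBL and the phosphatase gene PTPRJ rose to 1.59, 1.36 and 1.33 times (limma adjusted p = 0.0161, 0.0177 and 0.0242), and the docking protein gene GAB2 fell to 0.715 times (limma adjusted p = 0.0487). The rise of CBL was also called with shPCYT2-1, at 1.27 times shNT (limma adjusted p = 0.0226). Between the hairpins the adaptor gene SHC1 was higher in shPCYT2-2, at 29 ± 0.631 against 21.1 ± 0.95 FPKM (limma adjusted p = 0.00249), as were SOCS3 (2.04 times, limma adjusted p = 0.0119) and the deubiquitinase gene USP8 (1.53 times, limma adjusted p = 0.0363). GAB2 was lower in shPCYT2-2, at 4 ± 0.447 against 6.8 ± 0.37 FPKM (limma adjusted p = 0.00369), as was CBLB (0.62 times, limma adjusted p = 0.03). Apart from ERRFI1 with shPCYT2-1 and SHC1 and GAB2 between the hairpins, each call named here was lost when some single library was left out, with limma adjusted p of up to 0.223. The list's called genes against shNT numbered 1, 3, 3 and 4 with shPCYT2-1 without its replicate 1, its replicate 2, shNT replicate 2 and shNT replicate 1, and 0, 3, 1 and 3 with shPCYT2-2 in the same order of libraries, its own replicates first. Between the hairpins they numbered 3 and 2 without shPCYT2-1 replicate 1 and 2, and 2 without shPCYT2-2 replicate 1.

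The 19 genes taken as outputs of the ERK pathway moved in both directions. With shPCYT2-1 7 rose and 4 fell, with shPCYT2-2 2 rose and 2 fell, and between the hairpins 5 were higher and 5 lower, with medians of 0.19, 0.086 and 0.031. Over all tested genes 16.6% were called higher and 10.1% lower with shPCYT2-1, 7.71% and 4.76% with shPCYT2-2, and 12.9% and 14.3% between the hairpins. CCND1, which encodes cyclin D1, read 132 and 134 FPKM in shNT, 96.8 and 97.6 in shPCYT2-1, and 199 and 196 in shPCYT2-2. It fell to 0.732 times shNT with shPCYT2-1 and rose to 1.49 times with shPCYT2-2 (limma adjusted p = 0.00121 for both), and the hairpins differed by 1.02 on the log2 scale (limma adjusted p = 2.12e-05). These 3 calls held under every alternative run.

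FOSL1, an AP-1 subunit gene, rose with shPCYT2-1 from 49.5 ± 1.73 to 70.7 ± 3.39 FPKM (limma adjusted p = 0.00265), as did the ERK phosphatase gene DUSP4, from 20.2 ± 1.09 to 28.4 ± 0.267 FPKM (limma adjusted p = 0.00328). The Eph receptor gene EPHA4 rose to 1.49 times (limma adjusted p = 0.0132). The transcription factor genes ETV4 and EGR1 fell to 0.786 and 0.752 times shNT with shPCYT2-1 (limma adjusted p = 0.00929 and 0.00593). ETV4 also fell with shPCYT2-2, to 0.73 times (limma adjusted p = 0.00777), as did EPHA2, to 0.739 times (limma adjusted p = 0.0112), while the feedback gene SPRY4 rose to 1.23 times (limma adjusted p = 0.0381). Between the hairpins DUSP6, the ERK phosphatase gene often read as an output of the pathway, was higher in shPCYT2-2, at 1.41 times its shPCYT2-1 level (47.1 ± 0.319 against 33.3 ± 0.311 FPKM, limma adjusted p = 0.00167), as was FOS, at 1.45 times (limma adjusted p = 0.0217). EPHA2, EPHA4 and DUSP4 were lower in shPCYT2-2 by that comparison, at 0.634, 0.659 and 0.685 times (limma adjusted p = 0.000581, 0.00877 and 0.00132). The calls of EPHA4 and FOS, of ETV4 and EGR1 with shPCYT2-1 and of ETV4, EPHA2 and SPRY4 against shNT with shPCYT2-2 were each lost without at least 1 library, with limma adjusted p of up to 0.155. The number called dropped from 11 to 5 with shPCYT2-1 without its replicate 1, from 4 to 1 with shPCYT2-2 without its replicate 1 and to 2 without shNT replicate 2, and from 10 to 6 between the hairpins without shPCYT2-1 replicate 1 or shPCYT2-2 replicate 2.

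**Figure D3:**
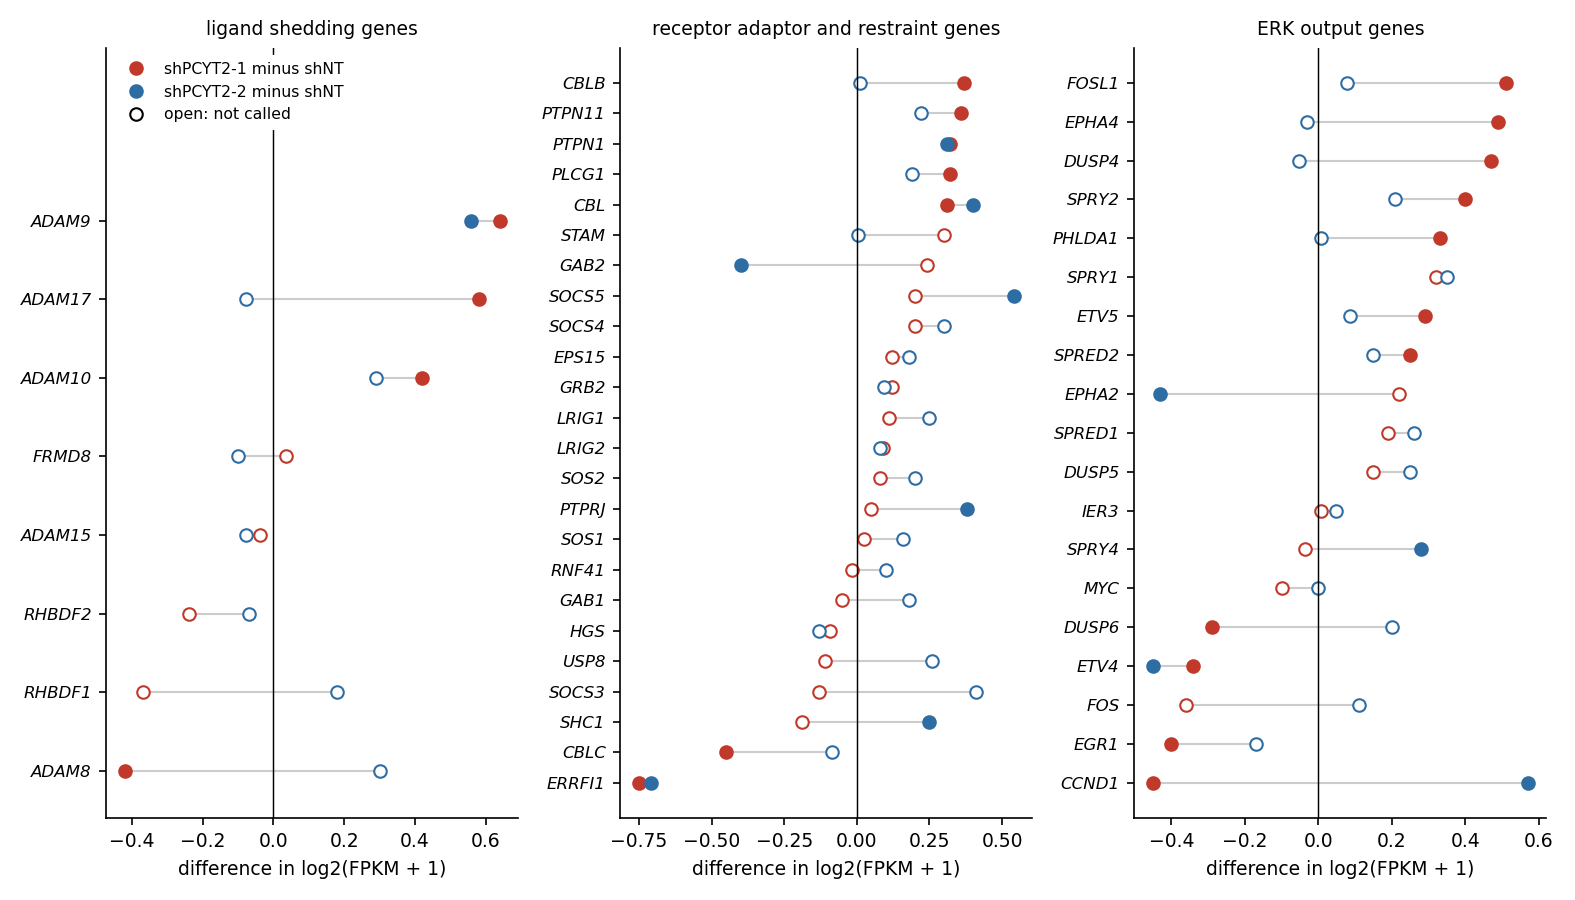
Difference from shNT in log2(FPKM + 1) for the tested genes of ligand shedding (8), receptor coupling and restraint (24) and ERK output (19), with shPCYT2-1 and shPCYT2-2 joined by a line for each gene; filled points passed limma at an adjusted p under 0.05 over all genes. ADAM17 was called with shPCYT2-1 alone, ERRFI1 was low with both hairpins, and CCND1 was called on opposite sides of 0.

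EREG and AREG sit in a stretch of chromosome 4 that also holds the CXC chemokine genes. Of 14 neighbours examined, 2 of which (BTC and EPGN) belong to the EGF family too, 12 were listed and 9 tested. They were taken for their place beside EREG, whose rise with shPCYT2-1 was already seen, and their p-values do not allow for this. With shPCYT2-1 6 rose and 0 fell (median 0.45), with shPCYT2-2 2 rose and 0 fell (median 0.23), and between the hairpins 1 was higher and 3 lower in shPCYT2-2 (median -0.27). Of all genes tested, 16.6% were higher and 10.1% lower in the first of these comparisons, 7.71% and 4.76% in the second, and 12.9% and 14.3% in the third. CXCL8 (interleukin 8, a neutrophil attractant), whose start lies at -625 kb from that of EREG, read 2.68 and 2.25 FPKM in shNT, 6.17 and 7.77 in shPCYT2-1, and 3.42 and 3.46 in shPCYT2-2. Both shPCYT2-1 libraries were above all others, at 2.82 times shNT (log2 difference 1.20, limma adjusted p = 0.000708), and shPCYT2-2 had a log2 difference of 0.36 (limma adjusted p = 0.0843).

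CXCL6 rose with shPCYT2-1 from 1.03 ± 0.0736 to 2.5 ± 0.265 FPKM (limma adjusted p = 0.00244) and was at 0.794 ± 0.118 FPKM in shPCYT2-2 (limma adjusted p = 0.309 against shNT). CXCL1 rose from 0.549 ± 0.24 to 1.47 ± 0.0305 FPKM with shPCYT2-1 (limma adjusted p = 0.00691) and to 1.15 ± 0.149 FPKM with shPCYT2-2 (limma adjusted p = 0.0435). The latter log2 difference of 0.48 was 0.32 without shNT replicate 1 and 0.64 without shNT replicate 2. PARM1, a mucin-like membrane protein gene that starts 568 kb after EREG, rose with shPCYT2-2, to 1.92 times shNT (limma adjusted p = 0.0389), beside 1.04 times with shPCYT2-1. Between the hairpins CXCL6 and CXCL8 were lower in shPCYT2-2, at 0.318 and 0.493 times their shPCYT2-1 levels (limma adjusted p = 0.000584 and 0.00163), BTC was lower as given above, and PARM1 was higher at 1.84 times (limma adjusted p = 0.0272). The number called fell from 6 to 3 with shPCYT2-1 without its replicate 1 or without shNT replicate 2, from 2 to 0 with shPCYT2-2 without any one of the 4 libraries compared, and from 4 to 2 between the hairpins without shPCYT2-1 replicate 2 or shPCYT2-2 replicate 1.

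**Figure D4:**
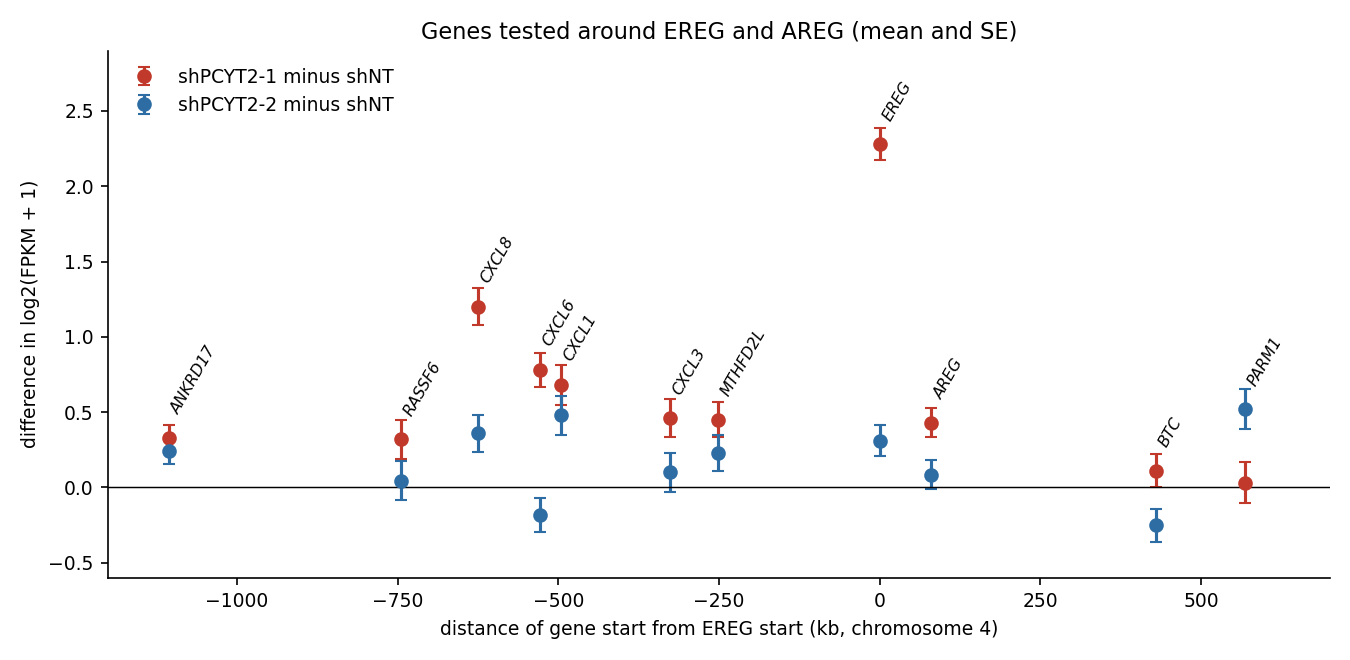
Difference from shNT in log2(FPKM + 1) with shPCYT2-1 and shPCYT2-2 for EREG, AREG and the 9 tested neighbours, placed by the distance of the gene start from that of EREG in kb on chromosome 4; points are fitted means and bars the SE. EREG stood highest at 2.28 with shPCYT2-1, CXCL8 followed at 1.20, and AREG, 80 kb away, was at 0.43.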

How the data were processed

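Bulk RNA-Seq of SW480 cells was deposited as 1 table per library, with gene identifiers and length-scaled values listing genes above 0. The deposited values were read as FPKM from their decimals and sums, since their unit is not given in the sources used here. The labels name GRCh38 beside the mouse builds GRCm38 and mm10, and the aligner is not given in the sources used here. No mitochondrial protein-coding gene (0 of 13) was listed. Both a NEBNext Ultra and a SMARTER kit are named in the labels, and which of them made the libraries is not stated.

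Members and lists were chosen with earlier results of these data known, and the p-values of the list genes do not allow for this. Of 21539 identifiers, 19504 matched GENCODE 29. Repeated identifiers (115) were summed and 1143 groups with identical values merged, leaving 19437 genes. Unlisted genes were set to 0. The study's methods name a test for counts, which FPKM are not, so limma 3.58.1 (R 4.3.3, variance trend) was fitted to log2(FPKM + 1) of the 12755 genes that averaged 0.5 FPKM or more, with 3 groups and 3 contrasts in 1 fit. Fold changes on this scale understate the change of low genes. Benjamini-Hochberg adjustment ran over all tested genes, with calls at an adjusted p under 0.05. The fit was tested on simulated data. FPKM hold no depth, so the noise from read sampling, which weighs most on low genes, cannot be assessed. The small number of libraries also limits the precision. Replicates had a Pearson r over genes of 0.9934, 0.995 and 0.9938 in shNT, shPCYT2-1 and shPCYT2-2. Named from each list were up to 3 called genes with the largest differences in each direction and contrast, every other family member, and the 5 genes most like EREG with a mean of at least 1 FPKM. Promoter windows came from RefSeq. Alternatives were a pseudocount of 0.1, no expression limit, a limit of 1 FPKM, a replicate block, median-ratio scaling, no variance trend and leaving out each library.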

Additional observations from a re-analysis of the deposited data

Results flagged for a closer look

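The genes given here had all libraries of one hairpin above both shNT libraries and all libraries of the other below them, and those that are not members were kept only where the difference between the hairpins also passed limma at an adjusted p under 0.05. Of all tested genes, 69% did not overlap between shPCYT2-1 and shNT and 57.5% did not overlap between shPCYT2-2 and shNT. The share of all genes with the full arrangement was not counted. Nothing particular to the genes below is read from it. Values are log2 differences of shPCYT2-2 minus shPCYT2-1.

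Among the members, EGFR had a difference of 0.75 and TGFA of -0.68. Neither difference was tested, since both hold the comparison that chose the genes. Among the genes of ligand shedding, ADAM17 differed by -0.66, ADAM8 by 0.72 and RHBDF1 by 0.54. Among the genes that couple or restrain the receptors, GAB2 differed by -0.64, SHC1 by 0.44 and USP8 by 0.37. Of the ERK output genes, CCND1 differed by 1.02, EPHA2 by -0.65, DUSP6 by 0.49 and SPRY4 by 0.32. Near EREG on chromosome 4, CXCL6 differed by -0.96 and BTC by -0.36. NRG2 (0.35, limma adjusted p = 0.0508) and FRMD8, an iRhom-binding gene named here after its value was seen (-0.13, limma adjusted p = 0.188), had the same arrangement of libraries without passing. The calls of BTC, RHBDF1, SPRY4 and USP8 were lost without at least 1 of the 4 libraries compared, with limma adjusted p of up to 0.169, 0.158, 0.0979 and 0.178, and the RHBDF1 difference was 0.35 without shPCYT2-1 replicate 1 and 0.74 without its replicate 2.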

How the results depend on the processing

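Of 59 calls of named genes, 23 held under every alternative run and 36 were lost under at least 1. With no expression limit the genes called fell from 3406 to 1918 with shPCYT2-1 and from 1591 to 138 with shPCYT2-2, members called from 1 to 0, shedding genes to 2 and 0, receptor coupling genes with shPCYT2-2 to 0, ERK output genes with shPCYT2-2 to 1, and chromosome 4 neighbours to 3 and 0. Without the variance trend the genes called with shPCYT2-2 were 1031, the receptor coupling genes 4, and the other family genes between the hairpins 2. That last count was 0 with a limit of 1 FPKM and 2 with median-ratio scaling. Median-ratio scaling moved the share of called genes that were higher from 62% to 46.3% with shPCYT2-1, from 61.8% to 47.2% with shPCYT2-2 and from 47.5% to 51.8% between the hairpins. The members EGFR, ERBB2, ERBB3 and TGFA then differed from shNT with shPCYT2-1 by -0.54, -0.54, -0.11 and 0.16, each in its first direction. The cause of these shifts was not tested.

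Leaving out 1 library at a time gave 1166 to 3355 genes called with shPCYT2-1 (lowest without its replicate 1), 125 to 1897 with shPCYT2-2 (lowest without its replicate 1; 402 without shNT replicate 2) and 1680 to 3789 between the hairpins (lowest without shPCYT2-1 replicate 1). A lone library was assumed to vary like the other groups. Members called ranged from 0 to 1, and the EREG difference from 2.12 to 2.45 with shPCYT2-1 and from 0.14 to 0.47 with shPCYT2-2. In the order shPCYT2-1 against shNT, shPCYT2-2 against shNT and between the hairpins, calls ranged over 0, 0 and 0 to 1 for other family genes, 2 to 4, 0 to 1 and 2 to 3 for shedding, 1 to 7, 0 to 5 and 2 to 7 for receptor coupling, 5 to 11, 1 to 4 and 6 to 11 for ERK output, and 3 to 6, 0 to 2 and 2 to 4 for chromosome 4 neighbours. The ERBB3 difference between the hairpins turned from 0.054 to -0.01 without shPCYT2-2 replicate 1 and was 0.12 without replicate 2.

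Nothing in the labels pairs the same-numbered libraries. Their deviations from the group means correlated at 0.0027 (shNT and shPCYT2-1), 0.0628 (shNT and shPCYT2-2) and 0.193 (shPCYT2-1 and shPCYT2-2). With a replicate block the genes called were 3887, 2041 and 3877, beside 3406, 1591 and 3468 without it. Whether same-numbered libraries shared a batch was not tested. The other family genes called between the hairpins were 2 with the block. The block ended the call of GAB2 with shPCYT2-2 against shNT (limma adjusted p = 0.0508) and left that of CXCL1 at the threshold (0.05 after rounding).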
